A study of Mus musculus with 12 samples.

Results

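The 8 genes described here encode the RUNX transcription factors (*Runx1*, *Runx2* and *Runx3*), their shared partner CBFβ (*Cbfb*), ThPOK (*Zbtb7b*) and the T cell coreceptors (*Cd4*, *Cd8a* and *Cd8b1*). They were chosen by name from the 26608 genes listed in the count files, all 8 were found in every one of the 12 libraries, and all 8 passed the filter on low counts. Each library holds the RNA of 1 mouse aged 14 weeks, from T cells that were CD4+ and YFP(FOXP3)-, sorted after its spleen, cervical nodes and inguinal nodes had been combined. The groups were 4 *Foxp3Cre WT* mice (WT), 4 *Foxp3-Cre Tet2/3 fl/fl* mice with moderate disease (DKO-moderate) and 4 of the same genotype with severe disease (DKO-severe). The mice of all 3 groups carried the *Foxp3-Cre* allele, a knock-in that drives a YFP and Cre fusion from the *Foxp3* gene. Cre is thus directed to cells that express or have expressed *Foxp3*, but such expression is known to be leaky, and the sorted YFP- cells can hold both ex-Treg cells and conventional CD4+ T cells. Which of them lost *Tet2* and *Tet3* is not known from the libraries. In the paper's flow cytometry WT CD4+ T cells were mostly naive, and the naive share was much lower in DKO mice, most of all in DKO-severe. How far this shift in cell state enters the differences given here was not tested. DKO-moderate and DKO-severe are defined by the number of leukocytes in spleen and lymph nodes and do not differ by genotype. The paper's DKO-severe mice also held a higher share of females than its DKO-moderate mice. The sex of the mice in these libraries is not given here. The comparisons ask whether the RUNX, ThPOK and coreceptor genes differ between the CD4+ T cells of WT mice and those of mice with moderate or severe disease.

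RUNX proteins bind DNA as heterodimers with CBFβ and can activate or repress a gene, the latter with Groucho/TLE corepressors. In the thymus ThPOK directs cells toward the CD4 helper lineage and RUNX3 toward the CD8 cytotoxic lineage, and each factor represses the other. RUNX proteins also act at the silencer of *Cd4* and at the enhancers of the CD8 genes. CD4 binds MHC class II. CD8 binds MHC class I, as a heterodimer of the α and β chains on CD8+ T cells or as an αα homodimer on some other cells, among them a subset of dendritic cells.

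The genes lie on chromosomes 16 (*Runx1*, chr16:92601466-92826149, minus strand), 17 (*Runx2*, chr17:44495987-44814797, minus), 4 (*Runx3*, chr4:135120652-135177990, plus), 8 (*Cbfb*, chr8:105170674-105217989, plus), 3 (*Zbtb7b*, chr3:89377644-89394776, minus) and 6 in GRCm38, the assembly behind mm10. On chromosome 6, *Cd8b1* (chr6:71322788-71337494, plus) lies 35933 bp from *Cd8a* (chr6:71373427-71379173, plus), and *Cd4* (chr6:124864692-124888221, minus) lies 16140 bp from *Lag3*. RUNX proteins recognise the letters TGTGGT, read as ACCACA on the other strand. The windows printed here are those in which promoters of the 8 genes hold these letters. Each gives 30 bases of RefSeq promoter sequence (GRCm38.p6), written 5′ to 3′ along the gene's own strand with every match in capitals.
Zbtb7b, chr3:89387743-89387772, minus strand: ctggcgaggaacTGTGGTatgtgagtgggt
Runx3, chr4:135120503-135120532, plus strand: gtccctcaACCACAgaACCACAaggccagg
Runx2, chr17:44814690-44814719, minus strand: gtgaggtcacaaACCACAtgattctgtctc
Positions are counted back from the RefSeq start of each promoter. The match in *Zbtb7b* begins 89 bases before it, those in *Runx3* 134 and 126 bases, and that in *Runx2* 80 bases. The *Zbtb7b* and *Runx2* windows lie inside the gene spans given above. The start used for *Zbtb7b* is internal, and its promoter nearer the 5′ end of that span (chr3:89393329-89393628) held no match. The RefSeq table held 9 promoters of 6 of the 8 genes, and 3 of the 9 had a match on either strand within 250 bases before the start. Of all 32851 promoters listed, 14.0% had one. A match is a description of the sequence and not a shown binding site. The other promoters searched, those of *Runx1*, *Cbfb* and *Cd8a* and the remaining promoter of *Runx3* and of *Zbtb7b*, held no match in this window.

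Each library held 29254260 to 42133536 reads on genes. *Cd4* was abundant in every library, and the summed level of 10 general T cell genes was 6447 to 8138 CPM (CPM are read counts relative to the TMM-scaled library size, the unit of all levels here). Genes of other cell types were also counted and differed between groups. The summed level of 7 neutrophil genes, all at 0 in at least 1 WT library, was 0 to 1.41 CPM in WT, 0.159 to 8.29 CPM in DKO-moderate and 8.999 to 1998 CPM in DKO-severe. That of 7 B cell genes was 6.81 to 202 CPM in WT, 20.5 to 47.3 CPM in DKO-moderate and 36.3 to 365 CPM in DKO-severe. The libraries WT 3, DKO-severe 1 and DKO-severe 2 had the 3 highest sums of B cell, plasma cell, monocyte and erythroid genes and the 3 highest numbers of *Cd8a* reads. They were picked by those reads after the data were seen, are called the *Cd8a*-rich libraries here, and results that rest on them are also given without them. A further fit carried the mean log2 CPM of the neutrophil genes and that of the B cell genes as covariates (the marker covariates). The libraries are bulk samples, so fewer cells of a type and less RNA per cell cannot be told apart, and the p-values measure the spread between mice.

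Among the 8 genes, *Runx2* was higher and *Cd8b1* lower in both DKO groups than in WT, *Zbtb7b* was lower in DKO-severe, and *Cd4* was higher in DKO-moderate. *Runx1*, *Runx3*, *Cbfb* and *Cd8a* did not pass the test in any comparison. In DKO-severe against WT, 3 of the 8 genes passed (edgeR's quasi-likelihood test, adjusted p under 0.05 over all 16035 genes tested), 1 higher and 2 lower, where 52.6% of all genes tested passed, 26.6% higher and 25.9% lower. In DKO-moderate against WT 3 of the 8 passed, 2 higher and 1 lower, where 17.1% of all genes did, 12.3% higher and 4.74% lower. In DKO-severe against DKO-moderate none of the 8 passed by edgeR's test, where 20.1% of all genes did. At an unadjusted p under 0.05 that comparison gave 1 of the 8 in edgeR, which was *Cd8a*, and DESeq2 and limma voom each called 1 at the adjusted threshold. The median log2 fold change of the 8 was 0.17 in DKO-severe and 0.01 in DKO-moderate, against a median of -0.01 and 0 over all genes tested. The median size of the log2 fold change over all genes was 0.60 and 0.32 in these comparisons. Both comparisons use the same WT libraries. Of all genes called in DKO-severe against WT 50.7% were higher, and with library size in place of TMM 66.5%, where the median log2 fold change over all genes is 0.18.

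**Figure D1:**
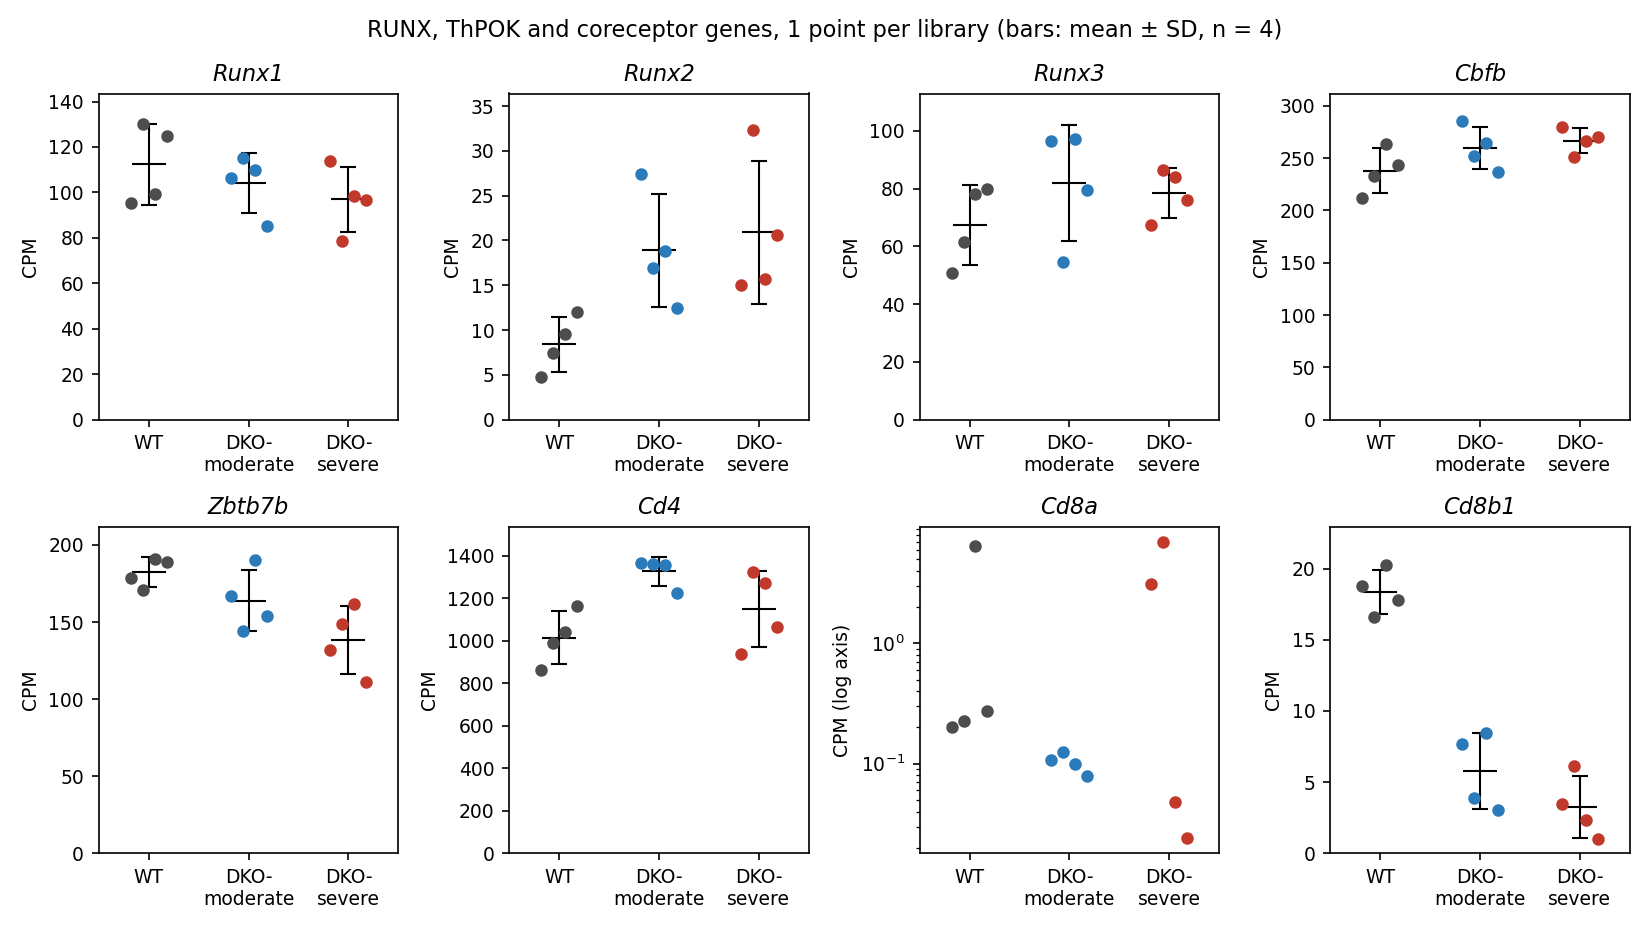
Level in CPM of each of the 8 genes in every library, by group (points are libraries, bars the mean ± SD of 4; *Cd8a* is on a log axis without bars). The 4 WT libraries lie below all DKO libraries for *Runx2* and above all of them for *Cd8b1*, and *Cd8a* is split within WT and within DKO-severe.

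Within WT, levels per kb of exon, the scale on which genes can be compared with each other, were ordered from *Cd4* to *Cd8a*. *Cd4* was at 252 ± 31.1 CPM per kb (SD, n = 4), *Cbfb* at 68.4 ± 6.15 and *Zbtb7b* at 32.6 ± 1.71. *Runx3* was at 13.5 ± 2.77, *Cd8b1* at 12.4 ± 1.05 and *Runx1* at 9.35 ± 1.47 CPM per kb. *Runx2* was at 0.953 ± 0.347 CPM per kb, and *Cd8a* ranged from 0.0553 to 1.78. Neighbours in this order did not overlap, except *Runx3* with *Cd8b1* and *Runx2* with *Cd8a*, and *Runx3* also overlapped with *Runx1*. In DKO-moderate and DKO-severe the order of *Cd4*, *Cbfb*, *Zbtb7b*, *Runx3* and *Runx1* was the same and their ranges were apart. *Cd8b1* no longer lay beside *Runx3*: its ranges of 2.05 to 5.68 CPM per kb in DKO-moderate and 0.678 to 4.15 in DKO-severe overlapped those of *Runx2*, at 1.41 to 3.11 and 1.70 to 3.66.

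*Runx2*, best known as the master factor of bone formation and expressed at low levels in T cells, was the RUNX gene that passed the test. It was counted at 4.77, 7.42, 9.52 and 11.97 CPM across WT 1 to 4, 27.5, 17.0, 18.8 and 12.4 across DKO-moderate 1 to 4 and 15.02, 32.3, 15.7 and 20.6 across DKO-severe 1 to 4. Every DKO library was above every WT library, although WT 4 and DKO-moderate 4 were close. The mean level was 2.25-fold that of WT in DKO-moderate and 2.48-fold in DKO-severe. The log2 fold change was 1.17 in DKO-moderate (SE 0.33, edgeR adjusted p = 0.0299) and 1.31 in DKO-severe (SE 0.33, edgeR adjusted p = 0.00559). For *Runx2* the authors state otherwise, without showing data or a threshold. They report mRNA of *Runx2* and *Runx3* as unchanged from WT in DKO-severe ex-Treg cells, although methylation at the promoters of both was increased. The DKO groups overlapped, and DKO-severe exceeded DKO-moderate by 0.14 on the log2 scale (95% interval -0.56 to 0.85, edgeR adjusted p = 0.777). The call in DKO-moderate was lost without WT 1, WT 2, DKO-moderate 1 or DKO-moderate 2, where the edgeR adjusted p reached 0.0837, and with a replicate block (edgeR adjusted p = 0.0675). With the *Cd8a*-rich libraries left out, the log2 fold changes were 1.23 in DKO-moderate and 1.17 in DKO-severe, both past the threshold (edgeR adjusted p = 0.0366 and 0.0349). With the marker covariates the call in DKO-severe was lost (log2 fold change 1.73, edgeR adjusted p = 0.084). The neutrophil sum of every DKO-severe library lay above that of every WT library, so this covariate and the group cannot be told apart.

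*Runx1*, which is needed for the survival and quiescence of naive T cells, was at 95.2, 130, 99.2 and 125 CPM across WT, 106, 115, 110 and 85.4 across DKO-moderate and 114, 78.6, 98.5 and 96.7 across DKO-severe. The groups overlapped. The log2 fold change was -0.11 in DKO-moderate (95% interval -0.41 to 0.19, edgeR adjusted p = 0.621) and -0.21 in DKO-severe (95% interval -0.52 to 0.09, edgeR adjusted p = 0.209). None of 23 alternatives moved it past the threshold in any of the 3 comparisons.

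*Runx3*, the factor of the CD8 and cytotoxic programme, was at 50.8, 61.5, 78.0 and 79.7 CPM across WT, 96.6, 54.6, 97.3 and 79.3 across DKO-moderate and 67.5, 86.3, 84.1 and 76.2 across DKO-severe. The spread within WT and within DKO-moderate was as wide as the differences between groups. Its log2 fold change was 0.28 in DKO-moderate (95% interval -0.12 to 0.68, edgeR adjusted p = 0.320) and 0.22 in DKO-severe (95% interval -0.19 to 0.62, edgeR adjusted p = 0.339). No alternative placed *Runx3* past the threshold.

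*Cbfb*, the partner of all RUNX proteins, was at 212 to 263 CPM in WT, 237 to 285 CPM in DKO-moderate and 251 to 280 CPM in DKO-severe. The groups overlapped. Its DKO-severe log2 fold change was 0.17 (SE 0.08, edgeR adjusted p = 0.118) and its DKO-moderate one 0.13 (SE 0.08, edgeR adjusted p = 0.328). In DKO-severe it passed the threshold in 6 of 23 alternatives, among them DESeq2 (log2 fold change 0.25, adjusted p = 0.0077) and limma voom (log2 fold change 0.19, adjusted p = 0.04). The sum of the RUNX levels per kb of exon was shared unequally. *Runx3* made up 51.3% to 62.6% of it across WT, 48.7% to 65.1% across DKO-moderate and 54.7% to 62.9% across DKO-severe. *Runx2* made up 2.90%, 3.50%, 4.32% and 4.90% in WT 1 to 4, 5.77% to 9.94% across DKO-moderate and 6.62% to 13.3% across DKO-severe. The lowest DKO library was thus above the highest WT library, with *Runx2* still the smallest of the 3 in every library. In exact permutation tests, two-sided, the share of *Runx2* reached p = 0.0286 against WT in both groups, the smallest that 4 libraries against 4 allow, and adjusted over the 18 ratio comparisons made here it was 0.129. None of the 18 passed after this adjustment.

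**Figure D2:**
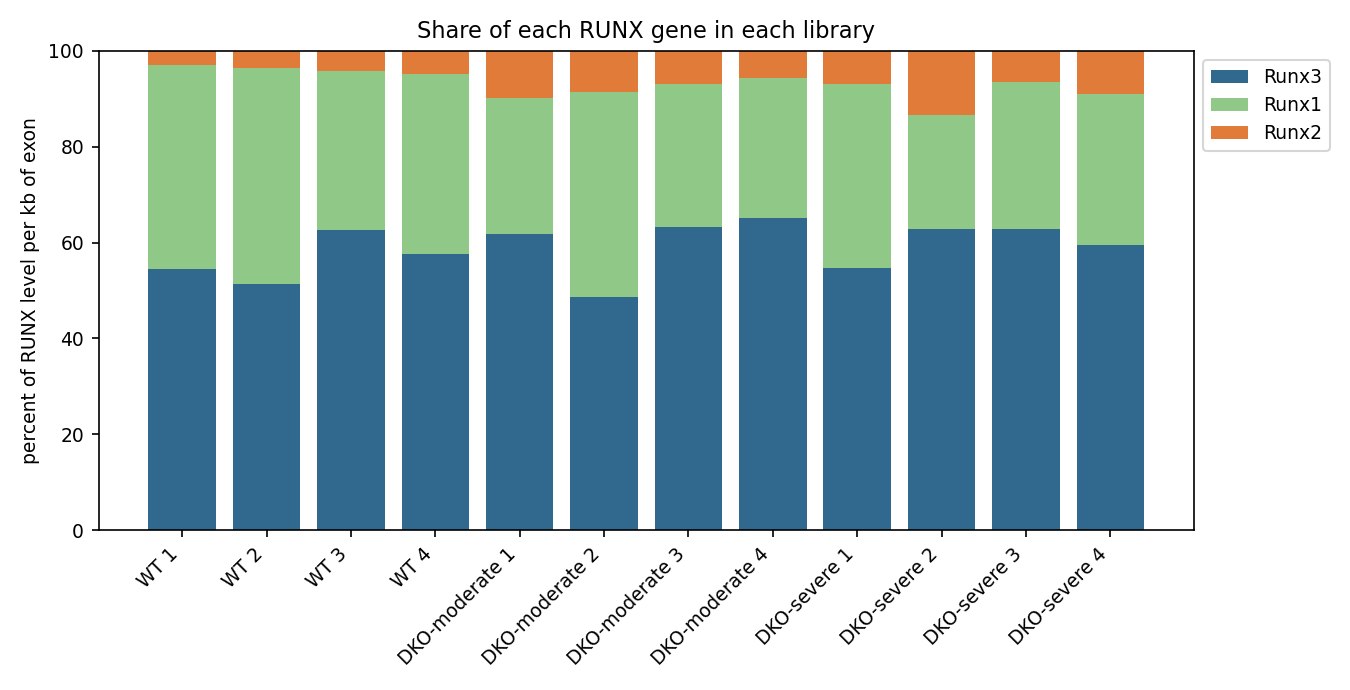
Share of *Runx1*, *Runx2* and *Runx3* in the sum of their levels per kb of exon, in percent, 1 bar per library. *Runx3* is the largest share in all 12 libraries, and the *Runx2* share is 2.90% to 4.90% in WT and 5.77% to 13.3% in the DKO libraries.

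*Zbtb7b*, the gene of the CD4 lineage factor ThPOK, was at 179, 171, 191 and 189 CPM across WT, 167, 144, 190 and 154 across DKO-moderate and 132, 149, 162 and 111 across DKO-severe. All DKO-severe libraries were below all WT libraries, and DKO-moderate overlapped with both groups. The DKO-severe mean was 75.9% of the WT mean, for which edgeR gave -0.40 on the log2 scale (SE 0.12, adjusted p = 0.0135). For DKO-moderate it was -0.15 (SE 0.12, edgeR adjusted p = 0.387). The call in DKO-severe was lost with library size in place of TMM (log2 fold change -0.21, edgeR adjusted p = 0.119), without DKO-severe 4 (-0.27, edgeR adjusted p = 0.0541) and with the marker covariates (-0.25, edgeR adjusted p = 0.532). Leaving out the *Cd8a*-rich libraries, the log2 fold change was -0.39 (edgeR adjusted p = 0.0909). *Gm15417*, which overlaps *Zbtb7b* on the opposite strand, was at 2.59 to 5.09 CPM in all 12 libraries, and the stranded counting keeps the reads of both genes apart. *Runx3* relative to *Zbtb7b* per kb of exon, on the log2 scale, was -1.30 ± 0.26 (SD, n = 4) for WT, -0.87 ± 0.26 for DKO-moderate and -0.65 ± 0.19 for DKO-severe. *Zbtb7b* thus exceeded *Runx3* in every library, by less in each of the 4 DKO-severe libraries than in each of the 4 WT libraries (exact permutation test, two-sided p = 0.0286, adjusted over the 18 ratio comparisons 0.129).

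*Cd4*, on whose protein the cells were sorted, was at 864, 989, 1044 and 1166 CPM across WT, 1368, 1361, 1356 and 1225 across DKO-moderate and 938, 1325, 1271 and 1064 across DKO-severe. Every DKO-moderate library was above every WT library, and DKO-severe overlapped with both groups. In DKO-moderate the mean was 1.31-fold that of WT, a log2 fold change of 0.39 (SE 0.12, edgeR adjusted p = 0.0471), and this call was lost in 14 of 23 alternatives, with adjusted p up to 0.134. In 9 of the 14, a single library was left out. For *Cd4* in DKO-severe edgeR gave 0.18 on the log2 scale (95% interval -0.09 to 0.44, edgeR adjusted p = 0.234), and it passed only with library size in place of TMM (0.36, edgeR adjusted p = 0.0286). Its neighbours on chromosome 6 behaved otherwise. *Lag3*, a CD4-related inhibitory receptor, was at 16.04 CPM on average in WT, 298 CPM in DKO-moderate and 797 CPM in DKO-severe. On the log2 scale edgeR put the changes from WT at 4.21 (SE 0.51, edgeR adjusted p = 0.000373) and 5.63 (SE 0.55, edgeR adjusted p = 1.31e-05). *Gpr162*, 709 bp from *Cd4* on the other side, was at 1.19 CPM in WT, 3.43 CPM in DKO-moderate and 6.96 CPM in DKO-severe, with log2 fold changes of 1.52 (SE 0.30, edgeR adjusted p = 0.00496) and 2.54 (SE 0.30, edgeR adjusted p = 4.21e-05).

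**Figure D3:**
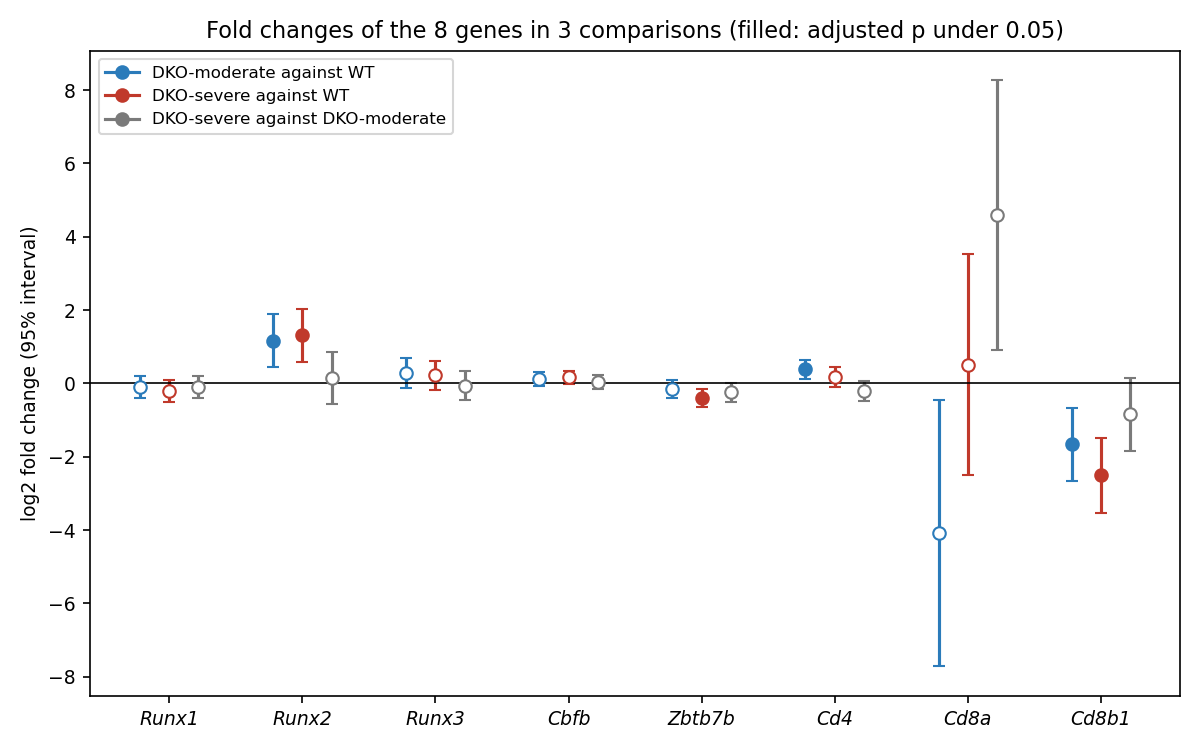
Log2 fold change of each gene in the 3 comparisons with its 95% interval (filled points have an edgeR adjusted p under 0.05). The intervals of *Runx2* and *Cd8b1* lie on 1 side of 0 in both comparisons with WT, and those of *Cd8a* span several log2 units.

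*Cd8b1*, the gene of the CD8β chain, showed the largest change among the 6 calls in the 8 genes. It was counted at 18.8, 16.6, 20.3 and 17.8 CPM across WT, 7.71, 3.91, 8.42 and 3.05 across DKO-moderate and 3.44, 6.15, 2.33 and 1.01 across DKO-severe. The WT libraries lay close together and above all DKO libraries, while the DKO groups overlapped. The mean was 3.18-fold lower than in WT in DKO-moderate and 5.68-fold lower in DKO-severe. The log2 fold change was -1.67 in DKO-moderate (SE 0.46, edgeR adjusted p = 0.0271) and -2.51 in DKO-severe (SE 0.48, edgeR adjusted p = 0.000935). When the *Cd8a*-rich libraries were left out, these were -1.62 and -3.40. In DKO-moderate the call was lost in 6 of the fits that left out 1 library, each WT library and DKO-moderate 2 and 4 (edgeR adjusted p up to 0.0814). In DKO-severe it was lost only with the marker covariates (-3.19, edgeR adjusted p = 0.0614). The difference between DKO-severe and DKO-moderate was -0.84 (SE 0.46, edgeR adjusted p = 0.199). It passed in limma voom (-1.57, adjusted p = 0.00857) and in edgeR without DKO-severe 2 (-1.32, adjusted p = 0.0458). DKO-severe 1 and 2 had the highest *Cd8b1* levels of their group and WT 3 that of WT, so leaving out the *Cd8a*-rich libraries lowers the DKO-severe mean by construction and gives no test of *Cd8b1*.

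*Cd8a*, the gene of the CD8α chain, was split between libraries. It was counted with 7, 7, 225 and 10 reads in WT 1 to 4, with 4, 4, 4 and 3 reads in DKO-moderate, and with 97, 230, 2 and 1 reads in DKO-severe. The 9 libraries with few reads held 1 to 10, and the other 3 held 97 to 230. The split ran within WT and within DKO-severe, and the DKO-moderate libraries lay below all WT libraries in CPM. *Cd8a* did not pass the threshold in any comparison, with log2 fold changes of -4.09 in DKO-moderate against WT (SE 1.67, edgeR adjusted p = 0.113), 0.50 in DKO-severe against WT (SE 1.39, edgeR adjusted p = 0.776) and 4.59 in DKO-severe against DKO-moderate (SE 1.69, edgeR adjusted p = 0.074). DESeq2 called the first of these (adjusted p = 0.0147) and the third (adjusted p = 0.00455). Without WT 3 alone the log2 fold change in DKO-moderate was -1.17 (edgeR adjusted p = 0.606), and in DKO-severe against WT it was 3.42 (edgeR adjusted p = 0.061). With the marker covariates *Cd8a* was called lower than in WT in both groups, with a log2 fold change of -2.72 in DKO-moderate (edgeR adjusted p = 0.0152) and -5.61 in DKO-severe (edgeR adjusted p = 0.0144). Among the 9 libraries with few reads, WT held 7 to 10, DKO-moderate 3 to 4 and DKO-severe 1 to 2, the same order as for *Cd8b1*. The log2 fold change in DKO-severe over these 9 libraries was -2.60, a value with no test because the libraries were chosen by *Cd8a*.

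The CD8 chains were thus counted in very different proportions. In the 9 libraries with few *Cd8a* reads, 42 to 653 reads fell on *Cd8b1*, which is 31 to 93.3 reads of *Cd8b1* for 1 read of *Cd8a*. In WT 3 the same number was 3.13, in DKO-severe 1 it was 1.09 and in DKO-severe 2 it was 0.878. The 705 reads on *Cd8b1* in WT 3 were near the 514 to 653 of the other WT libraries, although *Cd8a* was more than an order of magnitude higher there. In WT 3, DKO-severe 1 and DKO-severe 2 the summed B cell genes were at 96.9 to 365 CPM against 6.81 to 47.3 CPM in the other 9 libraries, and the 6 monocyte and macrophage genes at 160 to 335 CPM against 1.29 to 54.7 CPM. The summed level of 7 genes of CD8a+ dendritic cells overlapped, at 12.02 to 58.7 CPM in these 3 libraries and 0.805 to 98.3 CPM in the other 9, but *Cadm1* alone made up to 86.1 CPM of it. The genes of the list differed. *Clec9a*, a defining receptor of these cells, was at 0.130 to 0.345 CPM in the 3 libraries and 0 to 0.0315 in the other 9. *Flt3*, a receptor for dendritic cell growth, was at 1.20 to 2.01 against 0 to 0.263 CPM, and *Itgax*, the CD11c gene, at 5.22 to 9.44 against 0.230 to 1.74 CPM. These 3 genes were thus higher in every *Cd8a*-rich library than in every other library, although *Clec9a* rests on few reads. The summed B cell and monocyte genes separated the same libraries, and how many of all genes do so was not counted. *Xcr1*, another defining receptor, overlapped (0.162 to 0.517 against 0.0238 to 0.742 CPM). So did *Zbtb46* (0.517 to 11.8 against 0.230 to 12.5 CPM), *Batf3* (0.402 to 1.43 against 0 to 1.15 CPM) and *Cadm1* (1.93 to 38.7 against 0.0287 to 86.1 CPM). The part of other cells in the *Cd8a* reads was not tested.

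**Figure D4:**
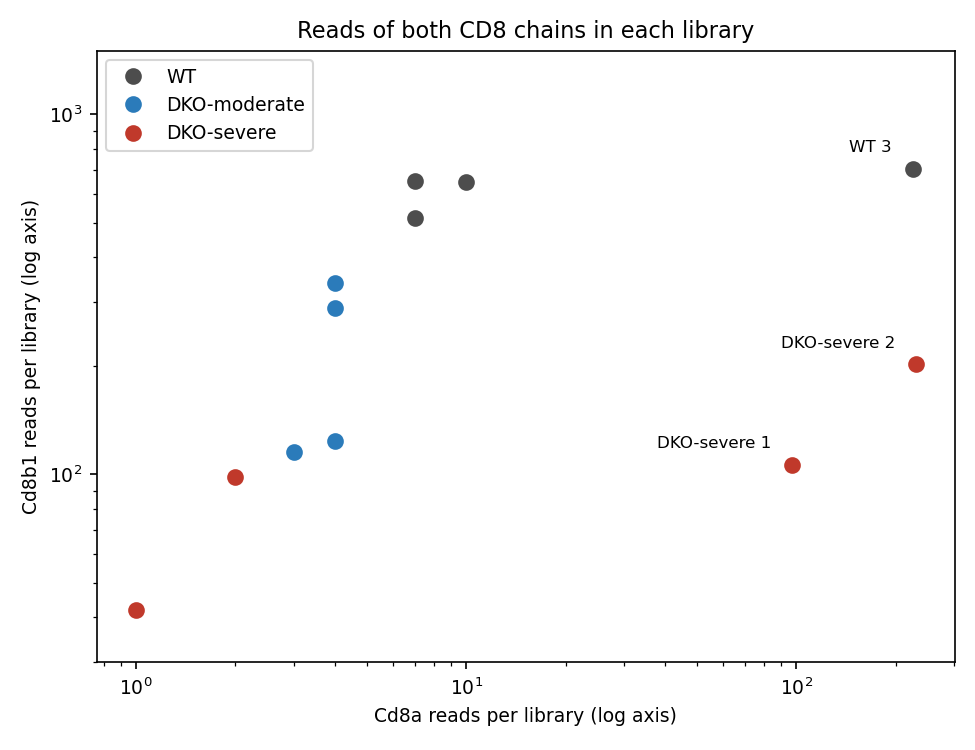
Reads on *Cd8a* (x axis) and *Cd8b1* (y axis) in each library, both on log axes, coloured by group. WT 3, DKO-severe 1 and DKO-severe 2 lie apart at 97 to 230 *Cd8a* reads, and the other 9 libraries lie between 1 and 10 *Cd8a* reads and 42 and 653 *Cd8b1* reads.

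Genes of the Groucho/TLE family, which holds corepressors of RUNX proteins, were in part lower in DKO-severe. Of the 5 genes, 3 were lower than in WT and 2 did not pass, with a median log2 fold change of -0.36. Of all genes 52.6% passed, with 25.9% lower, and the median over all genes was -0.01. *Tle1* was at 15.8, 16.2, 16.2 and 13.3 CPM across WT, 10.6, 3.72, 11.3 and 4.19 across DKO-moderate and 1.10, 3.68, 1.98 and 2.01 across DKO-severe. The ranges of its 3 groups did not overlap, although DKO-moderate 2 and DKO-severe 2 were close. *Tle1* had the largest DKO-severe change of the 5, and how many of all genes part the groups in this way was not counted. Its log2 fold change was -2.81 in DKO-severe against WT (SE 0.42, edgeR adjusted p = 0.000202) and -1.77 against DKO-moderate (SE 0.41, edgeR adjusted p = 0.0133). The change from WT to DKO-moderate, -1.04, did not pass (SE 0.40, edgeR adjusted p = 0.0916). *Tle4* fell by 0.61 on the log2 scale in DKO-severe (SE 0.13, edgeR adjusted p = 0.00265) and *Aes*, a short TLE family member, by 0.36 (SE 0.11, edgeR adjusted p = 0.02). *Tle3* was at 245 CPM in WT and 259 CPM in DKO-severe and passed only in DKO-moderate, at 315 CPM and a log2 fold change of 0.36 (SE 0.10, edgeR adjusted p = 0.0271). Without the *Cd8a*-rich libraries 1 of the 5 was lower in DKO-severe and 0 passed in DKO-moderate, and with the marker covariates none passed in either comparison. Calls over all genes in these 2 fits also fell, to 6679 and 1961 in DKO-severe (8428 in the main fit). In DKO-moderate they were 2562 and 1901 (2734 in the main fit).

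Other regulators of the CD4/CD8 lineage choice and of the coreceptor genes changed in both directions. Of 15 such genes, 7 were lower, 2 higher and 6 not past the threshold in DKO-severe against WT, with a median log2 fold change of -0.33. In DKO-moderate 5 were lower, 2 higher and 8 not past. These are 9 and 7 of 15, beside 52.6% and 17.1% of all genes. *Lef1*, a factor that induces *Zbtb7b* in the thymus, was at 299 to 346 CPM in WT, 109 to 221 CPM in DKO-moderate and 48.1 to 79.5 CPM in DKO-severe, with a DKO-severe log2 fold change of -2.39 (SE 0.25, edgeR adjusted p = 1.65e-05). *Bcl11b*, a factor of T cell identity, was at 438 to 608 CPM, 253 to 380 CPM and 89.2 to 172 CPM (-2.01, SE 0.20, edgeR adjusted p = 1.49e-05). *Satb1*, a chromatin organiser that acts at the enhancers of the lineage genes, was at 889 to 925 CPM, 357 to 603 CPM and 161 to 295 CPM (-1.98, SE 0.19, edgeR adjusted p = 1.36e-05). *Tox*, which thymocytes need to become CD4+ cells, was at 50.2 to 90.8 CPM, 108 to 152 CPM and 173 to 222 CPM (1.64, SE 0.18, edgeR adjusted p = 2.82e-05). For these 4 genes the 3 groups formed steps that did not overlap. The 4 were named because they had the largest DKO-severe changes of the 15, which favours such steps. How many of all genes form such steps was not counted. In DKO-moderate against WT all 4 passed as well, with log2 fold changes of -0.95, -0.80, -1.01 and 0.94. *Gata3*, which acts upstream of ThPOK, averaged 73.6 (WT), 83.6 (DKO-moderate) and 71.2 CPM (DKO-severe) and did not pass. In the fit without the *Cd8a*-rich libraries the counts of the 15 were 6 lower and 2 higher in DKO-severe, and with the marker covariates they were 4 lower and 1 higher. Over all genes these fits called 6679 and 1961 in DKO-severe, against 8428 in the main fit.

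**Figure D5:**
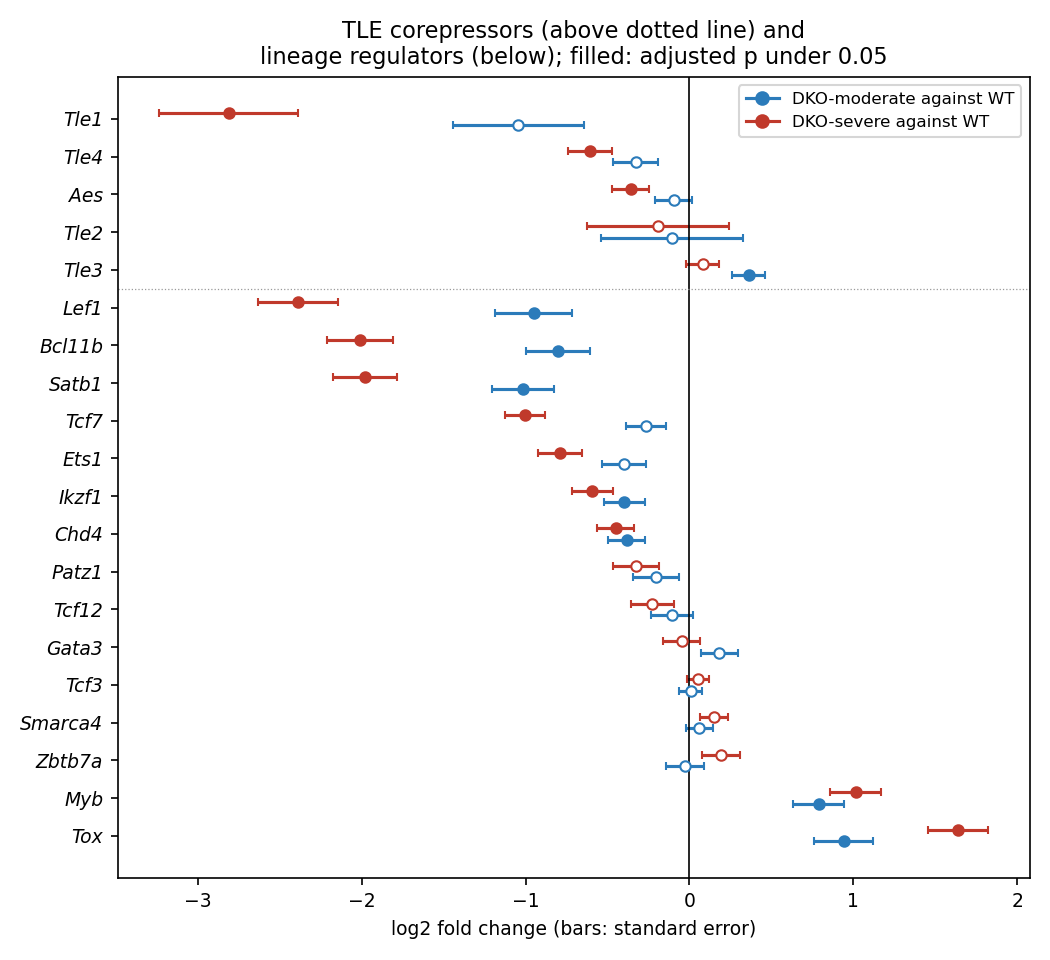
Log2 fold change against WT, with its standard error, of the 5 TLE family genes and the 15 lineage regulators in DKO-moderate and DKO-severe (filled points have an edgeR adjusted p under 0.05). *Tle1*, *Lef1*, *Bcl11b* and *Satb1* lie farthest to the left and *Tox* farthest to the right in DKO-severe.

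Genes known as RUNX targets in T cells moved in both directions. Of 9 genes 8 were tested, since *Il3* had at most 3 reads in a library. In DKO-severe 4 were higher and 1 lower, and in DKO-moderate 4 were higher, beside 52.6% and 17.1% of all genes. *Spp1*, which encodes osteopontin and is also a target of RUNX2 in bone, was at 0.431, 0.839, 1.93 and 3.96 CPM across WT, 99.7, 32.3, 68.0 and 13.5 across DKO-moderate and 195, 118, 75.8 and 208 across DKO-severe. Its log2 fold changes were 4.88 in DKO-moderate (SE 0.74, edgeR adjusted p = 0.0012) and 6.36 in DKO-severe (SE 0.78, edgeR adjusted p = 4.80e-05). *Il2rb*, an IL-2 and IL-15 receptor chain, rose by 1.43 and 1.82 on the log2 scale (SE 0.19 and 0.20, edgeR adjusted p = 0.00069 and 2.25e-05). *Il7r*, the IL-7 receptor chain that RUNX1 maintains in naive cells, fell by 1.53 in DKO-severe (SE 0.34, edgeR adjusted p = 0.00278). *Csf2*, a cytokine gene with few reads, was at 0.347 CPM on average in WT and 1.38 CPM in DKO-severe (log2 fold change 1.99, SE 0.59, edgeR adjusted p = 0.0142). The groups overlapped, with DKO-severe 2 at 0.335 CPM and WT 1 at 0.488 CPM. *Ifng* and *Itgae*, which RUNX3 activates in CD8+ cells, did not pass in DKO-severe, where *Ifng* was at -0.79 (edgeR adjusted p = 0.104) and *Itgae* at -0.23 (edgeR adjusted p = 0.712) on the log2 scale. Once the *Cd8a*-rich libraries were left out, the counts in DKO-severe were 4 higher and 2 lower, and with the marker covariates 2 higher and 0 lower. All genes called in DKO-severe then numbered 6679 and 1961, against 8428 in the main fit.

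Of 15 cytotoxic lineage genes, 3 were higher than in WT in DKO-severe and 4 in DKO-moderate, and none was lower. *Gzmb*, which encodes granzyme B, was at 1.19 to 3.45 CPM in WT, 6.21 to 36.2 CPM in DKO-moderate and 25.0 to 129 CPM in DKO-severe, with a DKO-severe log2 fold change of 5.03 (SE 0.70, edgeR adjusted p = 0.000109). *Nkg7*, a cytotoxic granule gene, rose by 1.78 (SE 0.42, edgeR adjusted p = 0.00377) and *Zeb2*, a factor of terminal effector cells, by 2.15 (SE 0.57, edgeR adjusted p = 0.00784) on the log2 scale in DKO-severe. The factors *Eomes* and *Tbx21* and the perforin gene *Prf1* did not pass, with DKO-severe log2 fold changes of 1.12 (edgeR adjusted p = 0.148), 0.38 (edgeR adjusted p = 0.345) and -0.19 (edgeR adjusted p = 0.792). Of all genes 52.6% passed in DKO-severe against WT, with 26.6% higher, and 17.1% in DKO-moderate against WT, with 12.3% higher. In the other 9 libraries alone, 4 of the 15 were higher in each comparison. With the marker covariates the counts were 0 and 4. Over all genes the fit of the 9 libraries called 6679 in DKO-severe and 2562 in DKO-moderate. The fit with the covariates called 1961 and 1901, and the main fit 8428 and 2734.

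The genes whose level followed each of the 8 most closely were searched among 9989 genes by Pearson r of log2 CPM over the 12 libraries, which share their groups and depth. *Runx2* was most like *Serpinb6b* (r = 0.97) and *Serpinb9* (r = 0.96), both serine protease inhibitors. *Serpinb6b* had log2 fold changes of 1.32 in DKO-moderate (SE 0.27, edgeR adjusted p = 0.00599) and 1.45 in DKO-severe (SE 0.27, edgeR adjusted p = 0.000785). *Cd8b1* was most like *Map3k9* (r = 0.97) and *Foxo4* (r = 0.97), and *Cd8a* most like the B cell gene *Cd79a* (r = 0.97). *Zbtb7b* was most like *Fam55c* and *Slco3a1* (r = 0.96 and 0.95), *Cd4* like *Slamf1* (r = 0.97), *Runx3* like *Zfp58* (r = 0.96), *Cbfb* like *Rnf115* (r = 0.93) and *Runx1* like *Gak* (r = 0.83). Among the 8 genes themselves, the highest r was that of *Zbtb7b* and *Cd8b1* (0.85, over 12 libraries), and *Cd8a* and *Cd8b1* had r = 0.35.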

How the data were processed

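The deposited files hold counts of reads per gene, 1 file per mouse. Per the study's methods and processing notes, the authors made directional libraries, aligned them with STAR 2.7.11 to mm10, kept uniquely placed reads and counted them with htseq-count (reverse-stranded). Reads shared by near-identical genes are therefore missing. The annotation used for counting is not given in the sources used here. Positions and exon lengths come from GENCODE vM21, which held 22468 of 26608 symbols. Genes with at least 10 counts over a condition's libraries were kept and scaled by TMM. One edgeR 4.0.16 model of the 12 libraries (quasi-likelihood F test, R 4.3.3) gave all p-values, adjusted by Benjamini-Hochberg across the genes tested, with a threshold of 0.05. log2 CPM used a prior count of 2. SE is the size of the log2 fold change over the square root of F. The fits were tested on simulated data. Ratios were compared by exact permutation tests. Depth (29254260 to 42133536 reads) limits precision only for genes with few reads such as *Cd8a*.

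Alternatives were DESeq2 1.42.0, limma 3.58.1 voom with quality weights, other scalings and filters, a fit of just the compared groups, a replicate block, mean log2 CPM of neutrophil and of B cell genes as covariates, and leaving out each library. Chosen after seeing the data were a term for Y-linked transcripts and leaving out the 3 libraries with the most *Cd8a* reads. Named genes are the 8, up to 4 of each list with the largest change in DKO-severe, the closest genes by correlation and the nearest neighbours. *Gata3*, *Ifng*, *Itgae*, *Eomes*, *Tbx21*, *Prf1*, *Tle3* and the dendritic cell genes were named after their values were seen. The 8 genes and the lists were chosen with earlier results of these data known. The closest pair of libraries within a group still had a chi-square of 21.6 per degree of freedom, so none was a copy. Tables and plots were made in Python 3.11.15.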

Additional observations from a re-analysis of the deposited data

Results flagged for a closer look

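Each of the 8 genes was examined in each of the 3 groups for a library far from the other 3, which makes 24 sets of 4 libraries, and 2 stood out by Dixon's test. Chance alone would pick about 1 in 20 sets. *Cd8a* in WT 3 was at 6.47 CPM, while the other WT libraries were at 0.201, 0.226 and 0.273 CPM. In the same library the sum of B cell genes was 202 CPM, against 6.81 to 15.1 CPM in the other WT libraries, and the part of other cells in the *Cd8a* reads was not tested. *Cd4* in DKO-moderate 4 was at 1225 CPM, below the 1356 to 1368 CPM of the other DKO-moderate libraries and still above all WT libraries.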

How the results depend on the processing

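Of the 8 genes, 3 passed in DKO-severe against WT, 2 to 4 when 1 library was left out and 1 with the marker covariates. That 1 was *Cd8a*, now lower, and *Runx2*, *Zbtb7b* and *Cd8b1* all lost their calls. With these covariates the count over all genes was 1961 (8428 without them) and 76.4% of the calls were higher. In DKO-moderate against WT 3 passed, 0 to 3 with 1 library left out (0 without WT 1, WT 2 or DKO-moderate 2, and over all genes 1616 to 2920, the lowest without WT 1), 1 with a replicate block and 0 at an adjusted p under 0.01 (1142 over all genes). With a term for Y-linked transcripts 2 of the 8 passed in DKO-moderate against WT (2223 over all genes), and *Cd4* lost its call. In DKO-severe against DKO-moderate 0 passed, and 0 to 1 with 1 library left out (1646 to 3670 over all genes, the lowest without DKO-moderate 1). DESeq2 called 1, *Cd8a*, and limma voom 1, *Cd8b1* (6126 over all genes). Without the *Cd8a*-rich libraries the 1 called was also *Cd8b1* (2055 over all genes), and that choice of libraries gives no test of it. The marker covariates left 60 genes in that comparison, and an adjusted p under 0.01 left 926. The share of calls that were higher moved there from 46.9% to 59.6% with DESeq2 size factors and 64.9% with library size.

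The replicate numbers do not pair the mice: residuals of libraries with the same number had a median r of -0.05 (-0.29 to 0.28), and the replicate block gave 7794, 2201 and 2321 genes in the 3 comparisons, with 3, 1 and 0 of the 8. *Cd8a* in DKO-severe against WT turned to -5.61 with the marker covariates (edgeR adjusted p = 0.0144) and to -2.60 without the *Cd8a*-rich libraries (edgeR adjusted p = 0.0136), where the choice of libraries by *Cd8a* makes it no test. Against DKO-moderate the covariates turned it to -2.90 (edgeR adjusted p = 0.217). Between DKO-moderate and WT 3 of the 8 passed with them, *Runx2*, *Cd8b1* and *Cd8a*. *Ncf1*, a phagocyte gene close to *Cd8a* in its pattern, turned to -2.18 in DKO-severe against WT and -1.30 against DKO-moderate with these covariates, and to -0.093 in the latter without these libraries. The cause was not tested. Depth limits *Cd8a*, with 1 to 10 reads in 9 libraries.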
